A study of Mus musculus with 16 samples.

Results

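The genes described here are the nuclear genes of mitochondrial complex I in the mouse retina, both the subunits of the enzyme and the assembly factors that carry an Nduf name. They were taken by name, as every gene called Ndufa, Ndufb, Ndufc, Ndufs or Ndufv with a number, Ndufab1, or Ndufaf with a number. The rule found 45 of the 54532 genes in the table, all 45 of them protein coding, and it used no measured value. The libraries hold RNA of whole retinas taken at day 12 from mice of 2 strains, named C57 and BALBc in the labels, and there are 4 libraries in each of 4 groups. C57 hyperoxia and BALBc hyperoxia mice breathed 75% oxygen from day 7 to day 12, a period in which retinal capillaries regress. C57 normoxia and BALBc normoxia mice stayed in room air. No transgene or drug is named for any group, and all 4 groups shared the tissue and the age. The study asks which metabolic differences accompany resistance or susceptibility to oxygen-induced retinopathy, but the labels do not say which strain is the resistant one. Whether each library is a separate animal is not stated either, so a p-value measures the spread between these libraries.

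Complex I is the entry point of electrons into the respiratory chain. It takes electrons from NADH, passes them along a row of iron-sulphur clusters to ubiquinone, and pumps protons across the inner mitochondrial membrane. Its matrix arm holds the NADH and ubiquinone sites, its membrane arm holds the proton pumps, and the pump subunits themselves are encoded by the mitochondrial genome. The nuclear genome encodes the core subunits of the matrix arm and a large set of accessory subunits, and assembly factors help to build the enzyme without staying in it. Photoreceptors pack mitochondria densely into their inner segments and account for much of the oxygen use of the retina.

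All levels are FPKM values, which divide a gene's fragments by its length and by a library size that the authors chose. Recovered whole reads came to between 16.7 and 29.7 M (mega) per library, and their ratio to that library size was between 0.884 and 1.145. Rod genes, which mark the labelled tissue, were abundant in every library, but they differed within groups. Summed over 10 rod genes, the C57 libraries held 5116 to 15271 FPKM in normoxia and 8036 to 9319 FPKM in hyperoxia. The BALBc libraries held 11612 to 13612 FPKM in normoxia and 6684 to 14654 FPKM in hyperoxia. C57 normoxia replicates 1 and 2 and BALBc hyperoxia replicate 1 had the lowest mean log2 levels of the rod genes, and below, results are also given without these 3 libraries. All 4 C57 hyperoxia libraries held the female transcript Xist (61.8 to 105 FPKM) with the Y-linked Ddx3y listed at 0. C57 normoxia replicates 1 to 3 held Ddx3y (11.9 to 16.6 FPKM) and almost no Xist, and the other groups were mixed. Summed lens genes reached 1954 FPKM in C57 hyperoxia replicate 3 and were between 1.88 and 473 FPKM in the other libraries.

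All 45 genes were expressed in the retina, and all 45 reached at least 1 FPKM in every library, so none was lost to the filter on low values. Their mean levels over 16 libraries ran from 2.94 FPKM for Ndufaf2 to 260 FPKM (259.6) for Ndufa4, with a median of 38.0 FPKM against 6.06 FPKM for all tested genes, and 33 of the 45 were over 20 FPKM. After Ndufa4, the most abundant was Ndufb11, a subunit of the distal membrane arm (202 FPKM). The lowest after Ndufaf2 were the assembly factor Ndufaf7 (5.86 FPKM) and the distal membrane arm subunit Ndufb2 (6.17 FPKM). Assembly factors thus lay low in the order, with all 8 between 2.94 and 18.4 FPKM. The spread within a group was large for some genes. Ndufa12 of the matrix arm measured 15.4, 14.01, 53.8 and 21.5 FPKM across the 4 C57 normoxia libraries. The exons of 18 of the 45 genes overlap those of another gene, mostly on the opposite strand, as for Ndufs3 with Kbtbd4, Ndufb11 with Rbm10 and Ndufb2 with Braf. Whether the counting used strand is not given in the sources used here, so reads of such pairs cannot be told apart.

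**Figure D1:**
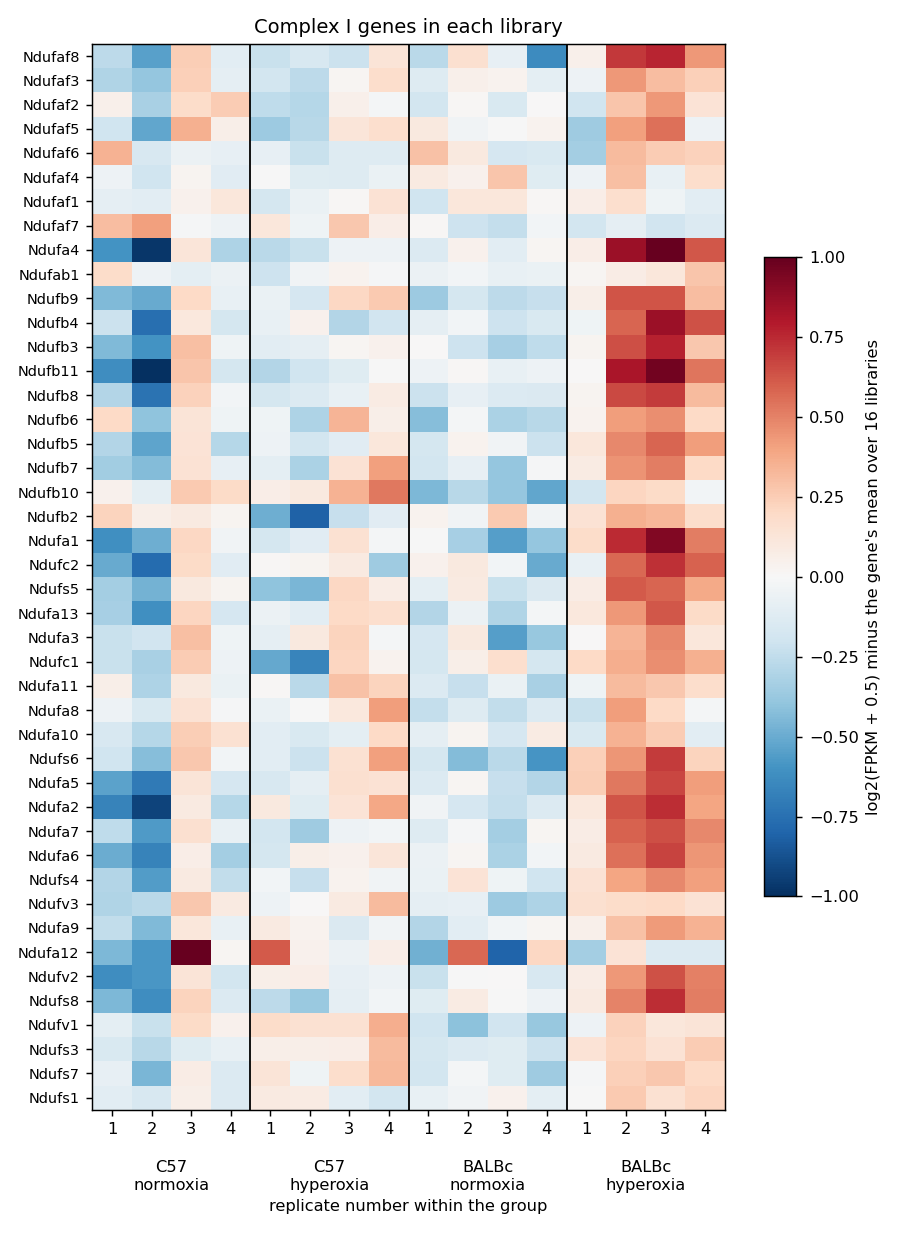
Heat map of 44 of the 45 complex I genes (rows) in 16 libraries (columns, by group and replicate number). Colour gives log2(FPKM + 0.5) minus the gene's own mean over the 16 libraries. BALBc hyperoxia replicates 2 to 4 are above 0 for most genes, with median deviations over the 45 genes of 0.42, 0.48 and 0.24, and C57 normoxia replicates 1 and 2 are below it, with medians of -0.25 and -0.44.

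In hyperoxia the complex I genes tended to be more abundant, by a larger amount in BALBc than in C57, but few genes passed the test on their own. The median log2 change from normoxia to hyperoxia was 0.46 in BALBc, with 44 of 45 genes above 0 (49.0% of all tested genes were above 0), and the changes ran from -0.04 to 0.91. In C57 the median was 0.13, with 36 of 45 genes above 0 (51.5% of all tested genes), and the changes ran from -0.51 to 0.57. The median over all tested genes was 0.00 in BALBc (-0.005) and 0.01 in C57. The BALBc response was the larger one for 44 of 45 genes. Across the 45 genes the responses of the strains had a Pearson correlation of 0.54 and a Spearman correlation of 0.58. Genes of one enzyme measured in the same libraries are not independent, and this is a description.

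limma called none of the 45 genes in either strain alone, where it called 0.334% of all tested genes in C57 (0.107% higher and 0.227% lower) and 0.161% in BALBc (0.0869% higher and 0.0736% lower). Taking an unadjusted p under 0.05, 34 genes were higher (8.39% of all tested genes) and 0 lower (5.78%) in BALBc hyperoxia, and in C57 hyperoxia 6 were higher (6.74%) and 1 was lower (6.55%). limma voom on the recovered reads also called 0 in each strain. Scaled to the read totals instead, voom called 10 in BALBc (0.924% of all tested genes), 0 in C57 and 13 over both strains (2.07%). The 4 hyperoxia libraries lay above all 4 normoxia libraries for 26 of 45 genes in BALBc (5.68% of all tested genes), and below them for 0 (3.14%). In C57 they lay above for 1 gene, Ndufs3 (3.89%). Averaged over both strains, the response was called for 6 of 45 genes, where 1.79% of all tested genes were called. All 6 were higher in hyperoxia (1.04% of all tested genes) and 0 lower (0.749%). Taking an unadjusted p under 0.05, 31 were higher (9.67%) and 0 lower (7.68%), and 42 of 45 lay above 0 (50.2%). They were the core subunits Ndufs3 and Ndufv1, the matrix arm subunits Ndufa2, Ndufa5 and Ndufa6, and the proximal membrane arm subunit Ndufa1. That count rests on most of the libraries. It was 17 without C57 normoxia replicate 3 (3.24% of all tested genes) and 14 without BALBc hyperoxia replicate 1 (3.18%). It was 2 without C57 hyperoxia replicate 2 (1.22%) or BALBc normoxia replicate 2 (1.54%). When any of the other 12 libraries was left out it was 1 (0.595% to 1.28%).

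**Figure D2:**
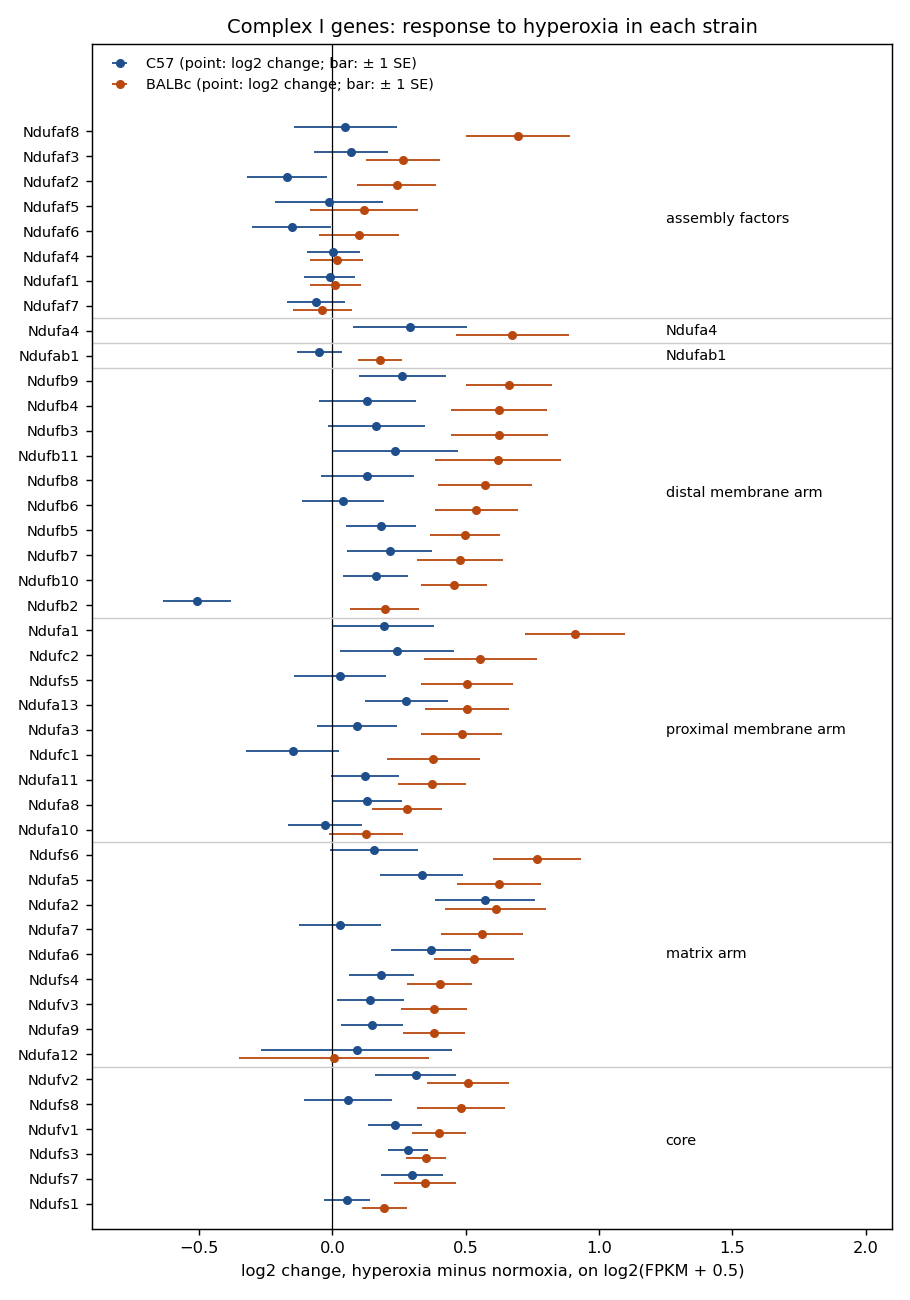
Log2 change from normoxia to hyperoxia (x axis, on log2(FPKM + 0.5)) for 44 of the 45 genes (y axis), grouped by place in the enzyme, in C57 and BALBc. Points are limma estimates and bars are 1 SE. For every gene shown except Ndufa12 the BALBc point lies to the right of the C57 point, and the assembly factors other than Ndufaf8 lie between -0.17 and 0.27.

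The 7 nuclear core subunits, which carry the electron path, had a median log2 change of 0.35 in BALBc and 0.23 in C57, and all 7 lay above 0 in each strain. Ndufs3, a core subunit of the ubiquinone-binding part (GRCm38 chromosome 2, 90894634 to 90904827), had the smallest adjusted p over both strains. It was 29.1, 26.7, 29.6 and 30.7 FPKM in C57 normoxia and 33.8, 33.7, 33.9 and 40.5 FPKM in C57 hyperoxia. In BALBc it was 28.5, 29.4, 29.6 and 27.8 FPKM in normoxia and 35.7, 37.6, 35.9 and 38.6 FPKM in hyperoxia. Every hyperoxia library was above every normoxia library of either strain, and the normoxia levels of the strains overlapped. Ndufs3 rose by 0.32 (log2, SE 0.05) over both strains (limma adjusted p = 0.0135). Its changes were 0.28 in C57 (adjusted p = 0.12) and 0.35 in BALBc (adjusted p = 0.0637). The call held under 30 of 32 alternatives and was lost under TPM scaling and with Ddx3y as a covariate. Ndufv1, which binds NADH and the flavin, was 47.0 ± 3.80 FPKM (SD, n = 4) in BALBc normoxia and 62.1 ± 5.07 FPKM in BALBc hyperoxia. In C57 it was 57.1 ± 7.14 and 67.0 ± 5.04 FPKM, and the C57 groups overlapped. Ndufv1 rose by 0.32 (SE 0.07) over both strains (adjusted p = 0.0371), a call kept under 12 of 32 alternatives.

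No other core subunit was called for hyperoxia. Ndufv2, an iron-sulphur protein beside the NADH site, had BALBc levels of 56.1 to 65.8 FPKM in normoxia and of 69.2 to 102 FPKM in hyperoxia, without overlap (log2 change 0.51, SE 0.15, adjusted p = 0.149). Ndufs7, which carries the last iron-sulphur cluster before ubiquinone, had similar changes in the strains, 0.30 in C57 and 0.35 in BALBc (over both, 0.32, adjusted p = 0.0587). Ndufs8, the partner iron-sulphur protein of Ndufs7, had BALBc levels of 72.0 to 83.0 FPKM in normoxia and of 83.5 to 131 FPKM in hyperoxia, with a change of 0.48 (adjusted p = 0.201). In C57 its change was 0.06, and this sign reversed under TPM scaling, quantile normalization, array weights and some omissions of libraries. Ndufs1, an iron-sulphur protein and the largest subunit, had changes of 0.20 in BALBc and 0.06 in C57.

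The promoters of 5 of the 45 genes, picked because they hold a motif, are shown as RefSeq gives them on GRCm38.p6. Each runs from 250 bases before to 50 after the start, with motif matches in capitals. RefSeq promoters were matched by symbol for 40 of the 45 genes (42 promoters). Each motif was searched as exact letters on both strands. Ndufs3 and Ndufs8 were chosen as core subunits with the motif of GABPA (also called NRF2), a factor known for driving respiratory chain genes. Ndufs7 and Ndufs6 were chosen for that of YY1, and Ndufa11, a membrane arm subunit, for that of NRF1. The windows are chr2:90904672-90904971 (minus strand) for Ndufs3, chr19:3912725-3913024 (minus) for Ndufs8, chr10:80249199-80249498 (plus) for Ndufs7, chr13:73328433-73328732 (minus) for Ndufs6 and chr17:56717512-56717811 (plus) for Ndufa11.
Ndufs3: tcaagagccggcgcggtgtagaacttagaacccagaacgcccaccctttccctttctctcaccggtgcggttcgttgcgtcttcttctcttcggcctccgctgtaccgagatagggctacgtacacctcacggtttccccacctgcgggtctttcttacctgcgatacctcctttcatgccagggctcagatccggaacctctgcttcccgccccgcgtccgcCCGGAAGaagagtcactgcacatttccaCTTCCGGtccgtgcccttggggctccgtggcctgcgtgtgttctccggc
Ndufs8: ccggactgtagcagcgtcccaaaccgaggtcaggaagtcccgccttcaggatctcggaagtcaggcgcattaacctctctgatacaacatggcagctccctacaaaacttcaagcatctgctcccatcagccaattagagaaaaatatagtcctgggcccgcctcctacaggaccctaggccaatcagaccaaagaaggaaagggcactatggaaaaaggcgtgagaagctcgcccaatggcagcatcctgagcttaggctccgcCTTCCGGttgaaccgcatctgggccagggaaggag
Ndufs7: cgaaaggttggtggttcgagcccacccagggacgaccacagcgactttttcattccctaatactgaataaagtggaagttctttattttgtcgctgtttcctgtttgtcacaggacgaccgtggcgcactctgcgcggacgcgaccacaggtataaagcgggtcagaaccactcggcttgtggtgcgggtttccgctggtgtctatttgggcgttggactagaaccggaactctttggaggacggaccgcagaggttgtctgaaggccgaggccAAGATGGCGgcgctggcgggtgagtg
Ndufs6: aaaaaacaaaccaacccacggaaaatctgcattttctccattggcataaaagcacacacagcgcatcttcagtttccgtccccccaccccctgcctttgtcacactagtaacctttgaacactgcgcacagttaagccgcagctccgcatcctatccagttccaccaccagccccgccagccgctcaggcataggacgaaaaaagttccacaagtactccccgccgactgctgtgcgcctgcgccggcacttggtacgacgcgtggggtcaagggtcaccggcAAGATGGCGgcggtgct
Ndufa11: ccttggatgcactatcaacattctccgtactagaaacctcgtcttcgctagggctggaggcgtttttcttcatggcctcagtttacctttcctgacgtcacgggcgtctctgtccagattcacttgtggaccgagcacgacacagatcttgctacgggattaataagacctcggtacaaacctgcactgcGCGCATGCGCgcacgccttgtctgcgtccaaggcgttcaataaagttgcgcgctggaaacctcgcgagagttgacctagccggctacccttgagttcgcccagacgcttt

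Positions count from the RefSeq start, whose first base is 1. Ndufs3 held CCGGAAG at -27 and its reverse complement CTTCCGG at 2, and Ndufs8 held CTTCCGG at 16. Ndufs7 and Ndufs6 held AAGATGGCG at 25 and 34. Ndufa11 held GCGCATGCG at -60, overlapping its own reverse complement at -59. Over all members, CCGGAAG was in 14.3% of the 42 promoters and in 8.86% of all 32851 promoters of the same length. AAGATGGCG was in 14.3% against 1.40%, those of Ndufa9, Ndufaf8, Ndufc1, Ndufs4, Ndufs6 and Ndufs7. GCGCATGCG was in 9.52% against 1.75%, those of Ndufa8, Ndufa11, Ndufaf4 and Ndufaf5. The ERR alpha motif TCAAGGTCA was in 0 of 42 and in 0.423% of all promoters. The BALBc changes of the 6 genes with AAGATGGCG were between 0.35 and 0.77. Those of the 6 genes with CCGGAAG (Ndufs3, Ndufs8, Ndufb6, Ndufb7, Ndufaf1 and Ndufaf8) were between 0.01 and 0.70, and those of the 4 with GCGCATGCG between 0.02 and 0.37. Over all 45 genes the BALBc changes ran from -0.04 to 0.91 with a median of 0.46, and a link of motif and change was not tested. A match of letters is a description and does not show that a factor binds there.

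The 9 accessory subunits of the matrix arm had a median log2 change of 0.53 in BALBc and 0.16 in C57, and 8 of the 9 did not overlap between the BALBc groups (5.68% of all tested genes). Ndufa2, a small thioredoxin-like subunit, was 63.9, 53.5, 109 and 83.5 FPKM in C57 normoxia and 109, 93.9, 112 and 133 FPKM in C57 hyperoxia. In BALBc it was 99.2, 90.8, 86.6 and 92.7 FPKM in normoxia and 109.8, 158, 170.3 and 134 FPKM in hyperoxia. The C57 groups overlapped in these values through normoxia replicate 3, and the BALBc groups did not overlap. Its rise over both strains was 0.59 (SE 0.13, adjusted p = 0.0377), called under 16 of 32 alternatives, with nearly equal changes of 0.57 in C57 and 0.61 in BALBc. Ndufa5 went from 52.1 ± 5.10 to 80.8 ± 9.78 FPKM in BALBc and from 47.7 ± 12.7 to 59.0 ± 6.67 FPKM in C57, and rose by 0.48 over both strains (SE 0.11, adjusted p = 0.0398, called under 15 of 32). Ndufa6, which docks the mitochondrial acyl carrier protein onto the enzyme, went from 36.2 ± 3.65 to 53.0 ± 8.89 FPKM in BALBc and from 30.5 ± 7.04 to 38.9 ± 3.38 FPKM in C57. It rose by 0.45 over both strains (SE 0.11, adjusted p = 0.0445, called under 12 of 32). Ndufs6, a zinc-binding subunit, was in BALBc 30.3, 25.2, 28.4 and 22.6 FPKM in normoxia and 40.5, 46.8, 56.1 and 40.1 FPKM in hyperoxia. The groups did not overlap and the change was 0.77 (SE 0.17), just outside the threshold (adjusted p = 0.0665). Its C57 change was 0.16, and its exons overlap those of Mrpl36. Ndufs4, whose loss causes a Leigh-like disease in mice, had changes of 0.40 in BALBc and 0.18 in C57.

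The 9 accessory subunits of the proximal membrane arm, next to the ubiquinone site, had medians of 0.48 in BALBc and 0.12 in C57. Ndufa1, a short membrane protein encoded on the X chromosome, had the largest BALBc change among the 45 genes. The BALBc normoxia libraries held 99.5, 79.2, 67.7 and 76.0 FPKM and the BALBc hyperoxia libraries 113, 167, 189.6 and 142 FPKM, again without overlap. That change was 0.91 (SE 0.19, adjusted p = 0.0574). In C57, the normoxia libraries at 65.1, 71.1, 115 and 97.1 FPKM overlapped the hyperoxia libraries at 88.1 to 111 FPKM, with a change of 0.19. Over both strains Ndufa1 rose by 0.55 (SE 0.13, adjusted p = 0.0485), a call kept under 11 of 32 alternatives. Ndufa13, also known as GRIM-19, had changes of 0.50 and 0.28 in BALBc and C57, and Ndufa10, a subunit related to nucleoside kinases, had the smallest BALBc change in this arm, 0.12, with -0.03 in C57.

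The 10 accessory subunits of the distal membrane arm had the highest median in BALBc, 0.56, against 0.16 in C57, and none was called for hyperoxia. Ndufb9, another subunit that binds the acyl carrier protein, ranged from 50.6 to 58.0 FPKM in BALBc normoxia and from 68.0 to 101 FPKM in hyperoxia (log2 change 0.66, SE 0.16, adjusted p = 0.091). Ndufb2 was the exception in C57. It was 7.15, 6.32, 6.46 and 6.16 FPKM in C57 normoxia and 4.17, 3.25, 5.08 and 5.54 FPKM in C57 hyperoxia. All 4 hyperoxia libraries were below all 4 normoxia libraries, the 1 gene of the 45 with such a gap downwards (3.74% of all tested genes), but the change of -0.51 (SE 0.13) did not pass the test (adjusted p = 0.109). In BALBc, Ndufb2 was between 5.88 and 7.35 FPKM in normoxia and between 6.72 and 7.89 FPKM in hyperoxia (log2 change 0.20, adjusted p = 0.522). Its exons overlap Braf and 2 other annotated genes.

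Ndufab1, the mitochondrial acyl carrier protein, stayed within a narrow range, from 6.27 to 8.98 FPKM over all 16 libraries, with changes of 0.18 in BALBc and -0.05 in C57. Ndufa4 was first described as a complex I subunit and is now assigned to complex IV, cytochrome c oxidase. The BALBc normoxia libraries held 223, 253, 228 and 249 FPKM, the BALBc hyperoxia libraries 256, 443, 489 and 377 FPKM (log2 change 0.68, SE 0.21, adjusted p = 0.167). The 8 assembly factors had medians of 0.11 in BALBc and -0.01 in C57, the lowest of the groups with more than 1 gene, and none was called for hyperoxia. Ndufaf8, which in human cells stabilizes Ndufaf5, had the largest BALBc change among them. Its normoxia level there was 14.5 ± 3.35 FPKM, and its hyperoxia level 23.7 ± 5.11 FPKM. The groups overlapped and the change was 0.70 (SE 0.19, adjusted p = 0.124). Ndufaf1, a factor for the membrane arm, had changes of 0.01 in BALBc and -0.01 in C57, and those of Ndufaf4, which works with Ndufaf3 on the early ubiquinone module, were 0.02 and 0.00. For Ndufaf3 they were 0.27 and 0.07, and for Ndufaf5, which modifies Ndufs7, 0.12 and -0.01. For Ndufaf2, a relative of Ndufa12 that acts late in assembly, they were 0.24 and -0.17. For Ndufaf6 they were 0.10 and -0.15. Ndufaf7, a methyltransferase, was the 1 gene of the 45 below 0 in BALBc (-0.04, and -0.06 in C57). Its BALBc sign reversed to 0.01 without BALBc normoxia replicate 1.

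**Figure D3:**
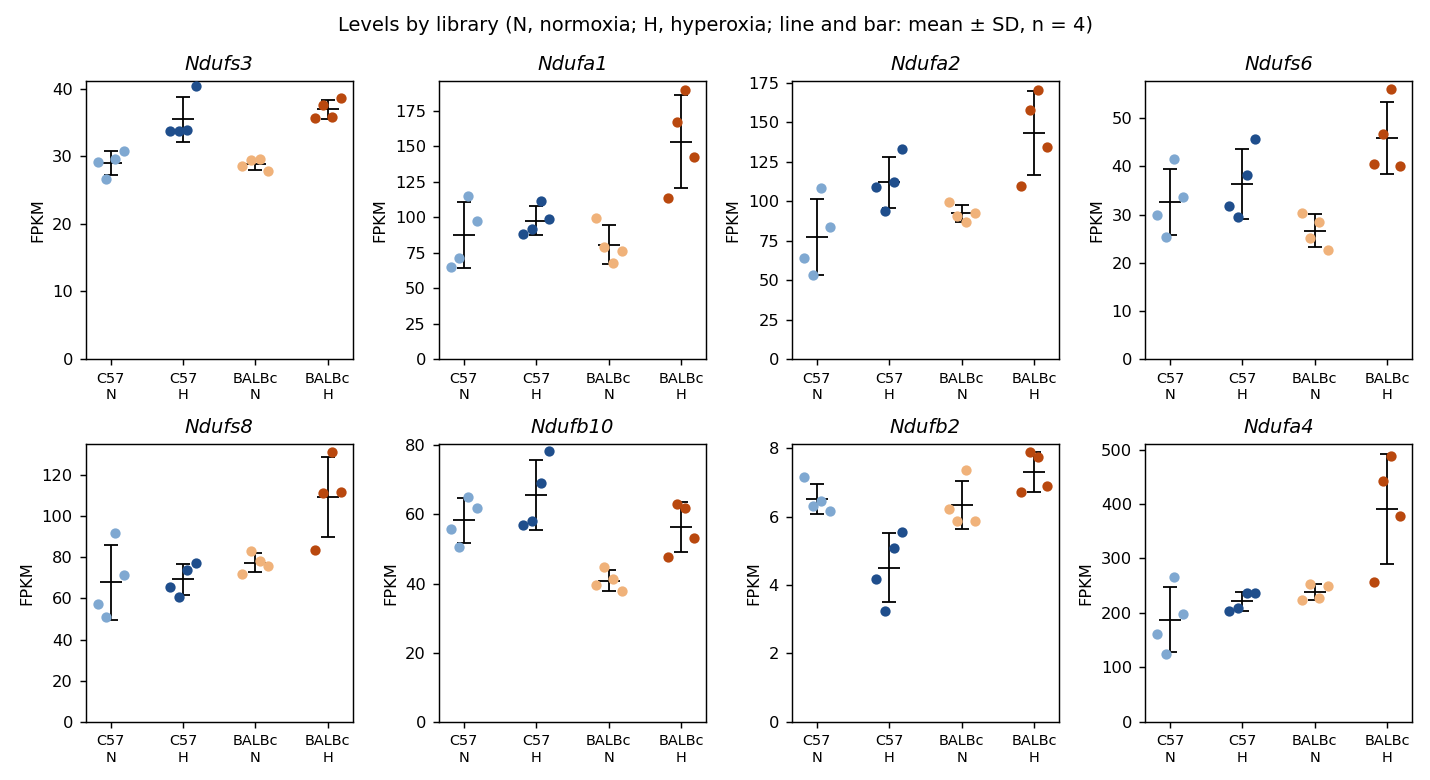
FPKM in each library (points) by group, for 8 of the genes, with mean and SD (n = 4) as lines and bars. N is normoxia and H hyperoxia. Ndufs3 is higher in every hyperoxia library (33.7 to 40.5 FPKM) than in any normoxia library (26.7 to 30.7 FPKM), and Ndufs8 is higher in every BALBc hyperoxia library (83.5 to 131 FPKM) than in any C57 hyperoxia library (60.5 to 77.1 FPKM).

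Across the 45 genes, those with shorter transcripts and higher levels tended to have the larger BALBc change, with Spearman correlations of -0.56 with gene-model length and 0.61 with mean level. In C57 these were -0.27 and 0.64. Over all tested genes with a length the correlation with length was -0.16 in BALBc and -0.04 in C57. The 45 genes are short, with a median gene model of 1718 bases against 3836 for all tested genes. The BALBc and C57 medians were 0.41 and 0.12 with the trend on length removed.

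In C57 normoxia and BALBc hyperoxia, libraries that were high in rod genes were also high in complex I genes, and in the other groups the orders differed. The median deviation of the 45 genes from their own means (log2) was -0.25, -0.44, 0.15 and -0.07 in C57 normoxia replicates 1 to 4, where the rod mean was 8.67, 8.50, 9.89 and 9.57. It was 0.04, 0.42, 0.48 and 0.24 in BALBc hyperoxia replicates 1 to 4, where the rod mean was 8.86, 9.88, 9.89 and 9.48. In C57 hyperoxia it was -0.08, -0.12, 0.05 and 0.07 beside rod means of 9.15, 9.17, 9.05 and 9.24. In BALBc normoxia it was -0.14, -0.02, -0.17 and -0.15 beside rod means of 9.53, 9.52, 9.57 and 9.70. In whole retina, fewer cells of a type and less RNA per cell cannot be told apart. The ratio of recovered reads to the authors' library size also differed between these libraries. It was 0.884, 0.887, 1.100 and 1.039 in C57 normoxia replicates 1 to 4, and 0.955, 1.145, 1.131 and 1.047 in those of BALBc hyperoxia. The part of this scaling was not tested beyond TPM scaling and voom on read totals. Of the 10 rod genes, 0 were called for hyperoxia in either strain and 0 had an unadjusted p under 0.05. Their changes ran from -0.77 to 0.20 in BALBc (median 0.06) and from -0.52 to 0.38 in C57 (median -0.02). With the rod mean as a covariate, limma called 29 of 45 complex I genes in BALBc (4.94% of all tested genes), 5 in C57 (2.81%) and 27 over both strains (8.51%), with medians of 0.47, 0.13 and 0.30. Without the 3 libraries lowest in rod genes, 26 were called in BALBc (median 0.53, with 4.52% of all tested genes called) and 0 in C57 (1.2%), where the median turned to -0.06 with 17 of 45 genes above 0. Over both strains 2 were then called (0.923%). These 3 libraries were also the lowest of their groups in complex I genes, and only replicates 3 and 4 of C57 normoxia remained. Leaving them out thus lowers the C57 change and raises the BALBc change by itself. Without C57 normoxia replicate 2 alone, the C57 median was 0.03, and without C57 normoxia replicate 3 it was 0.25. Leaving out BALBc hyperoxia replicate 1 gave 15 called genes in BALBc (1.9% of all tested genes).

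**Figure D4:**
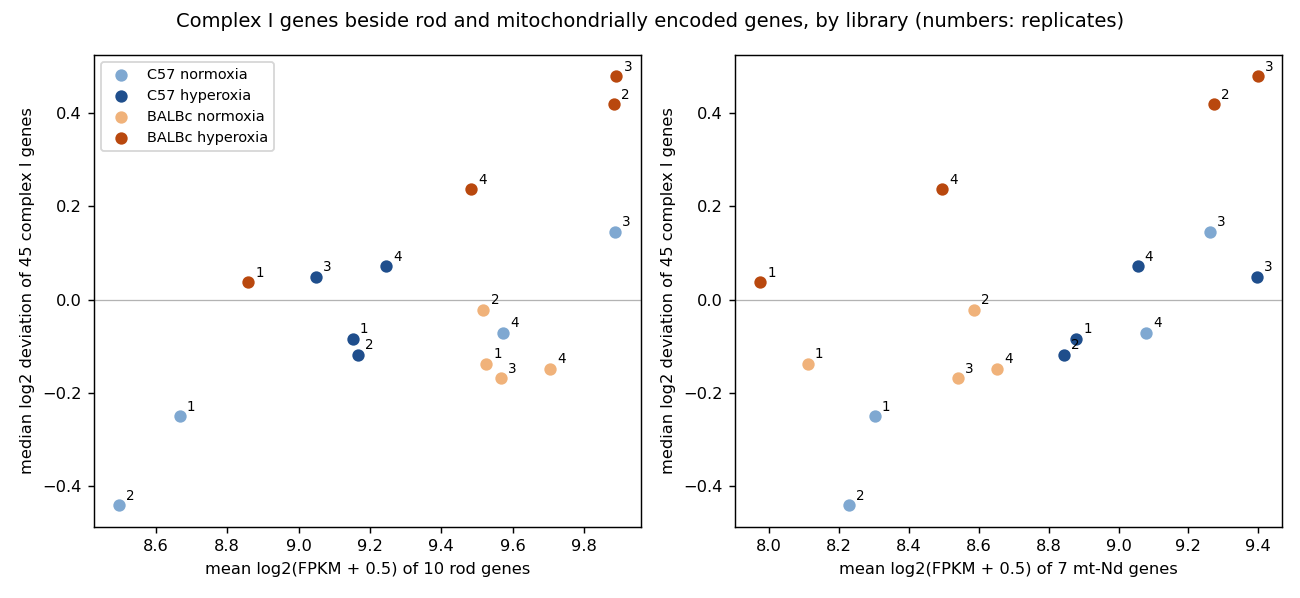
Each point is a library. The y axis is the median log2 deviation of the 45 complex I genes from their own means. The x axis is the mean log2(FPKM + 0.5) of 10 rod genes (left) or of the 7 complex I genes of the mitochondrial genome (right). BALBc hyperoxia replicates 2 to 4 lie highest, from 0.24 to 0.48, and replicate 1 lies at 0.04. Within C57 normoxia and BALBc hyperoxia the points climb with the rod genes.

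The sex transcripts were also unequal between the groups. With Ddx3y as a covariate, 0 of 45 genes were called over both strains, with a median of 0.32. That fit called 0.1% of all tested genes, against 1.79% without the covariate. By these transcripts C57 hyperoxia and C57 normoxia replicates 1 to 3 differ in sex, so in C57 sex and oxygen cannot be told apart except through normoxia replicate 4, which held both transcripts. Scaling mattered less for the medians' direction than for the calls. TPM scaling shifted the median of all tested genes to -0.17 in BALBc, -0.06 in C57, -0.07 between the strains in normoxia and -0.16 in hyperoxia. The complex I medians were then 0.29 and 0.06, with 38 and 28 of 45 genes above 0, and 4 genes were called in BALBc (0.716% of all tested genes) and 9 over both strains (2.33%). Of 7 endothelial genes, all had changes below 0 in both strains, with medians of -0.69 in BALBc and -0.46 in C57. Over both strains 4 were called lower (0.749% of all tested genes). In BALBc alone 2 were called lower (0.0736%), and in C57 alone 0 (0.227%).

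Markers of other cells also shifted between the BALBc groups, though none of those below was called for hyperoxia in BALBc. Of 6 Müller glia genes, all 6 had BALBc changes below 0 (median -0.35, 4 at an unadjusted p under 0.05, 0 called), against a C57 median of 0.22. Their interaction had a median of -0.73, with 4 at an unadjusted p under 0.05 and 0 called. In C57, 4 of the 6 Müller glia genes were above 0 and 2 below, and the hyperoxia libraries differed. The mean log2 level of the 6 was 5.61 and 5.69 in C57 hyperoxia replicates 1 and 2. In replicates 3 and 4 it was 5.30 and 5.27, within the range of C57 normoxia (5.26 to 5.44). All 6 bipolar genes were below 0 in BALBc (median -0.22, 1 at an unadjusted p under 0.05, 0 called). So were all 4 erythroid genes (median -1.63, 4 at an unadjusted p under 0.05, 0 called). Cone and ganglion genes went both ways. Of 6 cone genes 2 were above 0 and 4 below (median -0.18), and of 5 ganglion genes 1 was above and 4 below (median -0.10). At an unadjusted p under 0.05 were 1 cone gene, higher, and 0 ganglion genes. BALBc hyperoxia replicates 2 and 3, the libraries highest in complex I genes, stood apart in several of these lists. Summed pigment epithelium genes were 61.4, 274, 350.1 and 128 FPKM in BALBc hyperoxia replicates 1 to 4, and between 98.7 and 142 FPKM in BALBc normoxia. Summed bipolar genes were 320 (319.9), 114, 153 and 222 FPKM in the same libraries, and between 212 and 239 FPKM in BALBc normoxia. The part of these cell types, of rod content and of sex in the complex I levels was not tested beyond the covariates above.

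The difference between the strains' responses was tested directly as an interaction. BALBc changes exceeded C57 changes by a median of 0.25 (log2), with 44 of 45 genes above 0 (50.1% of all tested genes), but limma called 0 of 45 and 0 of all tested genes (0.0%). At an unadjusted p under 0.05, 0 genes were lower (4.81% of all tested genes) and 7 higher (4.75%), namely Ndufb2, Ndufa1, Ndufs6, Ndufa7, Ndufaf8, Ndufb6 and Ndufc1, and voom on the recovered reads called 0. The largest were 0.72 for Ndufa1 (SE 0.27, adjusted p = 0.428) and 0.70 for Ndufb2 (SE 0.18, adjusted p = 0.264), followed by 0.65 for Ndufaf8, 0.61 for Ndufs6 and 0.53 for Ndufa7. Ndufa12 was the gene below 0, at -0.08 (SE 0.51), and its sign reversed under several settings. Without the 3 libraries lowest in rod genes the median was 0.58 and 12 genes were called (4.0% of all tested genes), all 12 higher. Those libraries were also the lowest of their groups in complex I genes, so leaving them out raises this difference by itself. The omission was chosen after seeing the data. With array weights, which give less weight to libraries far from their group, the median was 0.53. That fit called 28 of the 45 genes and 23.2% of all tested genes.

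Between the strains in room air, complex I genes were balanced, and 2 subunits were lower in BALBc. The median BALBc minus C57 difference was 0.01, with 24 of 45 genes above 0 (51.9% of all tested genes), and it was -0.12 with the rod covariate. Under TPM scaling it was -0.07, as was the median of all tested genes. limma called 2 of 45 genes, where 9.08% of all tested genes were called. Both were lower in BALBc (4.38% of all tested genes) and 0 were higher (4.7%). Those 2 were also the genes whose libraries did not overlap downwards (8.93%), with 0 upwards (9.09%). At an unadjusted p under 0.05, 4 were lower (11.1%) and 0 higher (11.8%), so these shares were near or below those of all tested genes. Ndufb10, an intermembrane space subunit of the distal arm, was 58.3 ± 6.502 FPKM in the C57 and 40.8 ± 2.97 FPKM in the BALBc normoxia libraries. Its difference of -0.51 (SE 0.12, adjusted p = 0.0158) was lost without BALBc normoxia replicate 4 (adjusted p = 0.0543). In hyperoxia, Ndufb10 overlapped between the strains at 56.8 to 78.4 FPKM in C57 and 47.7 to 62.9 FPKM in BALBc (-0.21, adjusted p = 0.227). Ndufv1 and Ndufaf7 had normoxia differences of -0.27 (adjusted p = 0.108) and -0.28 (adjusted p = 0.136).

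In hyperoxia most complex I genes had higher levels in BALBc than in C57, and 12 passed the test. limma called 13 of 45 genes (22.6% of all tested genes), 12 of them higher (11.8%) and 1 lower (10.8%). Taking an unadjusted p under 0.05, 22 were higher (18.8%) and 2 lower (17.1%). The median difference was 0.29, with 39 of 45 genes above 0 (50.9% of all tested genes), and the groups did not overlap for 9 genes upwards (11.3%) and 2 downwards (10.1%), Ndufaf7 among them. The count of 13 depended on the setting. It was 25 genes in either direction without the 3 libraries lowest in rod genes (32.0% of all tested genes) and 12 with the rod covariate (22.3%). With Ddx3y as a covariate it was 4, a smaller share than the 14.1% of all tested genes. Under TPM scaling it was 14 (20.1%), with a median of 0.13. Leaving out a library also moved it, to 24 (28.4%) without BALBc hyperoxia replicate 1, the lowest of its group in complex I genes. It was 4 without BALBc hyperoxia replicate 2 (16.4%) or 3 (17%), a smaller share than that of all tested genes. It was 7 without BALBc hyperoxia replicate 4 (15.8%), and 8 and 6 without C57 hyperoxia replicates 1 (15.6%) and 2 (16.4%). All 10 rod genes were also above 0 in this comparison, with a median of 0.36 and 1 called, and in normoxia with a median of 0.32.

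The 12 genes included core, matrix arm and membrane arm subunits, the assembly factor Ndufaf8 and Ndufa4. Ndufb2 was 4.51 ± 1.018 FPKM in C57 hyperoxia and 7.31 ± 0.589 FPKM in BALBc hyperoxia (difference 0.66, SE 0.13, adjusted p = 0.00218), and its libraries did not overlap. In normoxia the difference was -0.04. Ndufa7, a matrix arm subunit, was 43.2, 38.4, 47.6 and 48.2 FPKM in C57 and 51.7, 74.5, 77.3 and 68.9 FPKM in BALBc hyperoxia, with no overlap (0.60, SE 0.15, adjusted p = 0.012). Ndufs8 was 65.6, 60.5, 73.8 and 77.1 FPKM in C57 and 83.5, 111, 131 and 112 FPKM in BALBc hyperoxia, also with no overlap (0.64, SE 0.17, adjusted p = 0.0125). Ndufb2, Ndufa7 and Ndufs8 were called in hyperoxia under all 25 alternatives. Ndufa4 was 203, 209.7, 236 and 236 FPKM in C57 hyperoxia, below each of the BALBc hyperoxia libraries (0.78, SE 0.21, adjusted p = 0.0168, called under 22 of 25). The remaining differences were 0.73 for Ndufb11 (adjusted p = 0.0366), 0.64 for Ndufb4 (0.0205), 0.63 for Ndufa1 (0.026), 0.61 for Ndufaf8 (0.0348), 0.58 for Ndufc1 (0.0269), 0.56 for Ndufs5 (0.0317), 0.46 for Ndufb5 (0.0214) and 0.42 for Ndufs4 (0.022), the values in parentheses being adjusted p. These 8 were called under 15 to 21 of 25 alternatives. Ndufa4 and the matrix arm subunits Ndufa5 and Ndufs4 had no overlap between the strains in hyperoxia, and Ndufa5 missed the threshold (0.45, adjusted p = 0.0505).

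**Figure D5:**
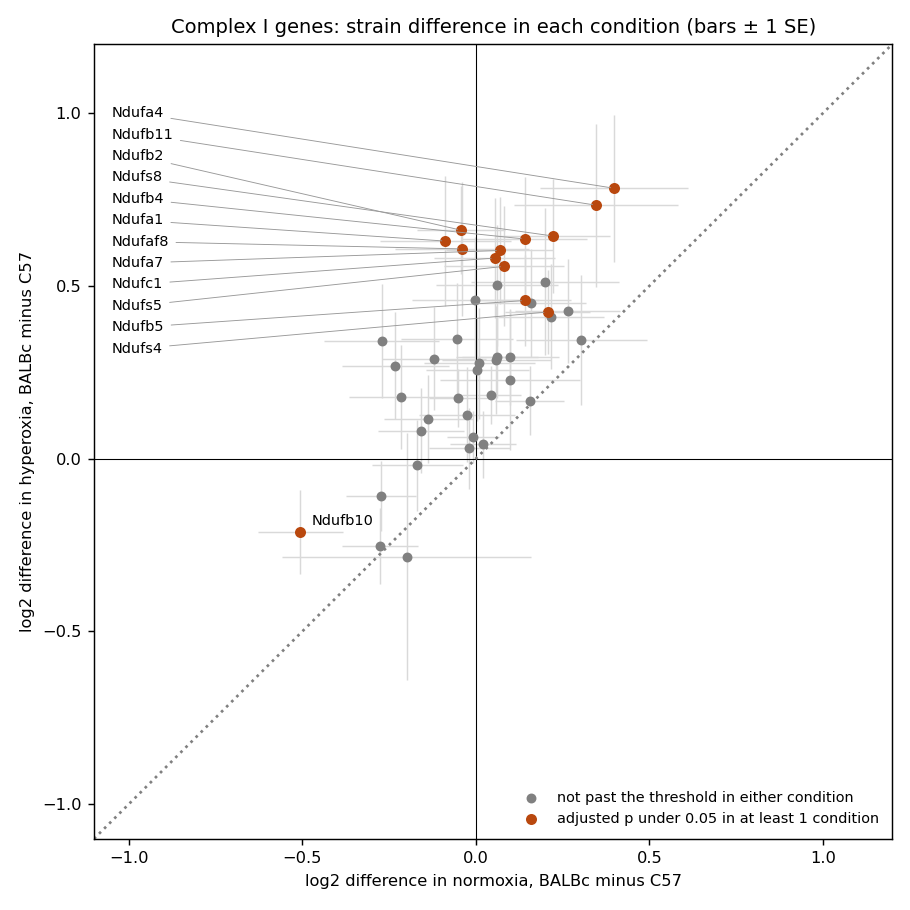
Log2 difference between strains, BALBc minus C57, in normoxia (x axis) and in hyperoxia (y axis) for 44 of the 45 genes, with bars of 1 SE. Coloured points passed the threshold in at least 1 condition. Ndufb10 lies below 0 at -0.51 and -0.21, and the 12 genes called higher lie between 0.42 and 0.78 in hyperoxia and between -0.09 and 0.40 in normoxia.

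The other genes of the enzyme gave a mixed picture. Of the 7 complex I genes of the mitochondrial genome, 0 were called for hyperoxia, with medians of 0.32 in BALBc and 0.30 in C57, and 1 had an unadjusted p under 0.05 over both strains. Between strains 1 was called, mt-Nd3. It was between 36.1 and 71.0 FPKM in the C57 libraries and between 2.62 and 7.63 FPKM in the BALBc libraries (difference -3.09 in normoxia, adjusted p = 1.23e-06, and -3.25 in hyperoxia, adjusted p = 6.17e-07). Of 10 tested assembly factors without an Nduf name, 0 were called for hyperoxia, with medians of 0.12 in BALBc and 0.01 in C57. Between the strains in hyperoxia Nubpl (0.45), Dmac1 (0.58), Timmdc1 (0.44) and Tmem126b (0.35) were called higher in BALBc and Foxred1 (-0.31) lower. In this comparison limma called 11.8% of all tested genes higher and 10.8% lower. Dmac1 and Timmdc1 were near the threshold (limma adjusted p = 0.0421 and 0.0404), and the C57 hyperoxia replicates differed. Dmac1 was 16.1, 18.8, 29.1 and 26.8 FPKM in C57 hyperoxia replicates 1 to 4, and Timmdc1 was 6.79, 6.40, 12.0 and 9.11 FPKM. Of 9 regulators of respiratory genes, 1 was called over both strains, Esrra, which encodes the nuclear receptor ERR alpha. It was 11.2 ± 0.776 and 14.996 ± 1.65 FPKM in C57 normoxia and hyperoxia and, in the same order, 11.1 ± 0.489 and 12.5 ± 0.973 FPKM in the BALBc libraries (0.28, SE 0.06, adjusted p = 0.0332). The coactivator Ppargc1b was higher in BALBc in both conditions (0.72, adjusted p = 0.0147, and 0.70, adjusted p = 0.00922). In hyperoxia Gabpa was called higher in BALBc (0.31, adjusted p = 0.0333) and Esrra lower (-0.25, adjusted p = 0.047), and Nrf1 and Yy1 had hyperoxia changes between -0.06 and 0.17 with none called.

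Genes with similar names that the rule leaves out were checked beside these. Ndufa4l2, a hypoxia-induced relative of Ndufa4, was 6.24 ± 0.935 and 4.65 ± 1.34 FPKM in C57 normoxia and hyperoxia and 2.07 ± 0.724 and 0.938 ± 0.074 FPKM in BALBc. It fell by 0.61 over both strains (SE 0.14, adjusted p = 0.0377) and was lower in BALBc in normoxia (-1.42, adjusted p = 0.000154) and in hyperoxia (-1.81, adjusted p = 1.01e-05). Ndufb1-ps carries a pseudogene suffix in its name, but its gene model is typed as a non-coding RNA of a bidirectional promoter, not as a pseudogene. Ndufb1-ps was 25.999 ± 3.73 and 43.7 ± 7.98 FPKM in BALBc normoxia and hyperoxia. It rose by 0.52 over both strains (SE 0.12, adjusted p = 0.0423). Ndufb4c was higher in BALBc than in C57 hyperoxia (1.14, SE 0.28, adjusted p = 0.0103), as Ndufb4 was. Ndufb4 and Ndufb4c, Ndufab1 and Ndufab1-ps, Ndufs6 and Ndufs6b, and Ndufa11 and Ndufa11b are near copies, so how the counting split their reads is uncertain.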

How the data were processed

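The authors deposited 1 table of FPKM values, with 54532 genes in 16 retina libraries. The labels' protocols name TRIzol for the RNA and the NEBNext Ultra II kit for the libraries. Per the submitters' processing notes, HISAT2 2.0.5, featureCounts 1.5.0-p3 and GRCm38 (mm10) were used. The annotation release, the strand setting and the library size of the scaling are not given in the sources used here. Whole reads were recovered from the FPKM step of 1 read: 97.1% to 97.5% of values up to 1000 reads were whole within 0.01. Gene models came from the mouse GENCODE release M21.

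Genes reaching 1 FPKM in 4 or more libraries (14953) were tested. Their log2(FPKM + 0.5) was fitted in 1 model of the 4 groups with limma 3.58.1 (trended empirical Bayes). Changes are on this scale, which understates those of low genes. There were 6 comparisons: hyperoxia against normoxia in each strain and averaged, the difference of the responses, and the strains in each condition. Tests were two-sided, adjusted over all tested genes by Benjamini-Hochberg, with a threshold of 0.05. "Called" means past it. The fit was tested on simulated data, drawn independently for each library around the C57 normoxia means. Those data held no rod or sex differences between libraries, so the simulation cannot show how such differences affect the calls. Values were also recomputed with other pseudocounts, filters, scalings, weights and covariates, a replicate block, voom on the recovered reads, and without each library in turn. Voom on read totals and the omission of 3 libraries were added after seeing the data.

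The members, lists, comparisons and named genes were chosen with earlier results of these data known. Named genes were every called member, the core subunits, in each comparison the 4 members of smallest p and the largest change against the median's direction, the 3 highest and 3 lowest in level, Ndufa4, Ndufab1 and the assembly factors. Ndufa10, Ndufa13 and others cited as examples were chosen after their values were seen. Of the 45 genes, 1 is not reported here on its own and is left out of the figures of single genes, but it stays in the counts and medians. Coa1 was not found under that symbol and is not analysed here. R 4.3.3 and Python 3.11.15 were used, the latter with matplotlib 3.10.9, numpy 2.4.6, pandas 2.3.3 and scipy 1.17.1.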

Additional observations from a re-analysis of the deposited data

Results flagged for a closer look

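In 180 groups of 4 libraries (45 genes in 4 groups), 7 held a library far from the other 3 by Dixon's criterion, where chance gives about 1 in 20. In C57 hyperoxia, replicate 4 was the highest for 4 genes: Ndufs3 at 40.5 FPKM (the others 33.7 to 33.9), Ndufa10 at 38.9 FPKM (30.4 to 31.6), Ndufv1 at 74.4 FPKM (63.9 to 65.6) and Ndufaf8 at 17.985 FPKM (13.98 to 14.7). Replicate 1 of the same group was the highest for Ndufa12, at 32.7 FPKM against 20.4 to 22.3. Ndufab1 was 8.41 FPKM in C57 normoxia replicate 1 against 6.81 to 7.05, and Ndufaf6 was 5.22 FPKM in BALBc hyperoxia replicate 1 against 7.94 to 8.47. Without C57 hyperoxia replicate 4, Ndufs3 was still called over both strains.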

How the results depend on the processing

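Counts below are of all genes called, then of the 45 complex I genes called, at an adjusted p under 0.05. In C57, hyperoxia gave 50 and 0 genes. All genes called were 32 with a pseudocount of 0.1, 11 with a filter of 0.1 FPKM, 9 with no filter, 99 with quantile normalization, 21 with the length trend removed, 1 with the 2 groups alone, 16 with no mean-variance trend, 2798 with array weights, 420 with the rod covariate, 0 with the Ddx3y covariate, 14 with voom on read totals and 179 without the 3 libraries lowest in rod genes. Complex I genes called were 4 with array weights and 5 with the rod covariate, and the median of 0.13 became -0.061 without those 3 libraries. In BALBc (24 and 0), all genes called were 8 with no filter, 107 with TPM, 64 with quantile normalization, 3 with the 2 groups alone, 2457 with array weights, 738 and 39 with the rod and Ddx3y covariates, 138 with voom on read totals and 676 without the 3 libraries. Complex I genes called were 4 (TPM), 3 (quantile), 34 (array weights), 29 (rod covariate), 10 (voom on totals) and 26 (without the 3). Over both strains (268 and 6), all genes called were 169 and 99 with the lower and with no filter, 2113 with array weights, 1273 and 15 with the rod and Ddx3y covariates, and 138 without the 3. Complex I genes called were 1 with either filter choice, 9 with TPM, 10 with quantile, 28 with array weights, 27 and 0 with the covariates, 13 with voom on totals and 2 without the 3.

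For the difference of the responses (0 and 0), array weights gave 3473 and 28 genes with a median of 0.53, the rod covariate gave 2 genes in all, and leaving out the 3 libraries gave 598 and 12 with a median of 0.58. Between strains in normoxia (1358 and 2), all genes called were 3110 with array weights and 867 without the 3, and 3 complex I genes were called with TPM, array weights, the rod covariate and without the 3. In hyperoxia (3380 and 13), all genes called were 2003 with the 2 groups alone, 6800 with array weights and 2102 with the Ddx3y covariate. Complex I genes called were 8 with no filter, 33 with array weights (median 0.53), 4 with Ddx3y and 25 without the 3. The causes were not tested.

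With 1 library left out, all genes called were 0 to 85 (C57), 1 to 284 (BALBc), 89 to 484 (both), 0 to 1 (difference), 903 to 1398 (strains, normoxia) and 2326 to 4244 (strains, hyperoxia). Complex I genes called were 0 to 0, 0 to 15, 1 to 17, 0 to 0, 1 to 2 and 4 to 24, and their medians were 0.03 to 0.25, 0.40 to 0.53, 0.24 to 0.35, 0.16 to 0.35, -0.06 to 0.12 and 0.24 to 0.39. Reversed C57 changes were -0.018 for Ndufs1 (TPM). TPM moved the C57 median of all tested genes from 0.01 to -0.06, about as far as it moved Ndufs1 and Ndufs8. Ndufs8 gave -0.014 (TPM), -0.011 (quantile), -0.15 (array weights), -0.23 (without the 3) and -0.066 to 0.22 with 1 library left out. Ndufaf7 in BALBc ran from -0.078 to 0.0054. The difference of responses of Ndufa12 was 0.12 with array weights, 0.58 without the 3, and -0.50 to 0.15 with 1 library left out.

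The replicate numbers gave no consistent pairing of single libraries across the groups. Between C57 normoxia and C57 hyperoxia, however, replicates 1 and 2 correlated positively with each other's group (0.087 to 0.207). So did replicates 3 and 4 (0.086 to 0.172), and the pairs across these sets were negative (-0.063 to -0.194). Whether such sets share a batch was not tested. Same-numbered libraries had correlations of deviations between -0.501 and 0.401, over 0.1 in 6 of 24 pairs, and a library correlated best with its own number in 4 of 24. With a replicate block, all genes called in C57 were 1, and complex I genes called were 5 over both strains and 16 between strains in hyperoxia.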
